A study of Mus musculus with 48 samples.

Results

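Brown fat of old mice that returned to full feeding after life-long restriction was compared with brown fat of mice that stayed restricted. The refed group is called DRAL and the restricted group DR, as in the labels, and their libraries were taken by these group names from the brown adipose tissue (BAT) count table. They make up 6 of the 48 libraries of the series and 6 of the 20 BAT libraries, with 3 in each group. The 3 libraries of old fully fed mice (AL) gave the level to which the refed group could return. The 6 BAT libraries of mice labelled 5 months (3 AL and 3 ALDR, newly restricted) gave a contrast of restriction that shares no library with these 3 groups. The young restricted libraries are titled ADRL; the group name ALDR rests on their descriptions, in which fully fed mice were moved to restriction when young. The comparison asks what refeeding late in life does to a tissue adapted to restriction.

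All mice were female C3B6F1 animals, an F1 hybrid strain, kept in cages of 5 on rodent chow. DR mice received 60% of the food that AL mice ate, from 12 weeks of age, as a single daily meal. DRAL mice had the same restriction until 24 months and free food from then on. AL mice had free food throughout. The young ALDR mice, like the DR mice, received 60% of the food that AL mice ate. The old libraries are labelled 26 months, whereas the protocol puts their death at 27 months. The mice of all groups were killed in the 3 hours before the restricted mice were due to be fed, so the time since the last meal differed between DR and the freely fed groups together with the diet, and these cannot be told apart here. The extraction protocol calls the brown fat epididymal although the mice were female, so the depot dissected is uncertain. The protocol describes the libraries as biological replicates and does not say how many mice each one holds.

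Brown adipose tissue burns fuel to make heat. Noradrenaline from sympathetic nerves acts on the β3-adrenergic receptor (Adrb3) of brown adipocytes and raises cyclic AMP. The signal releases fatty acids and turns on transcription of Ucp1, which lets protons leak across the inner mitochondrial membrane, and of Dio2, the deiodinase that converts thyroxine into active thyroid hormone inside the cell. Brown adipocytes take up fatty acids and glucose from blood, store triglyceride in many small droplets, and secrete hormones and growth factors.

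Total counts in the 9 old libraries ran from 6075585 (DR replicate 2) to 18013767, with a median of 14554990. A limit of 3 counts corresponded to 0.17 to 0.49 CPM (a gene's counts scaled to the size of its library), depending on the library. The summed level of the 10 brown adipocyte markers was 5926 to 7607 CPM in DRAL, 3668 to 4519 CPM in DR and 5672 to 8271 CPM in AL, so the tissue label held in every library. Skeletal muscle RNA was present at very different levels. The 12 muscle markers summed to 1270 to 5173 CPM in DR, 67.1 to 737 CPM in DRAL and 62.8 to 840 CPM in AL, and every DR library lay above every refed and AL library. None of these 12 markers passed the test between DRAL and DR, and their median log2 difference was -2.63. The muscle score, the mean log2(CPM + 1) of the markers, was 6.98, 6.11 and 8.09 in DR and 1.26, 5.56 and 5.26 in DRAL (two-sided exact permutation p = 0.1, the smallest that 3 against 3 can give). The gene differences below were refitted with the muscle score as a covariate, together with an epithelium score. They were also refitted without the libraries with the most and the least muscle RNA among these 6 (DR replicate 3 and DRAL replicate 1). Every DR score was above every DRAL score, also among the libraries left in. A call lost in either fit therefore cannot be assigned to muscle RNA rather than diet, and the latter fit also has fewer libraries. The epithelium score was 0.81 to 1.52 in DR and 0.22 to 2.51 in DRAL. In tissue RNA, fewer cells of a type and less RNA per cell cannot be told apart.

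The share of counts on the mitochondrially encoded genes separated the restricted group from the others. It was 15.2% ± 0.74 (SD, n = 3) in DR, with libraries from 14.58% to 16.02%. In DRAL it was 19.9% ± 0.44 (SD, n = 3), from 19.45% to 20.33%, and in AL 20.27% ± 0.58 (SD, n = 3), from 19.77% to 20.91%. The refed libraries were 4.7 percentage points above the restricted ones (two-sided exact permutation p = 0.1, the smallest possible) and within the range of the AL libraries or just below it (difference -0.37 points, exact permutation p = 0.5).

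**Figure D1:**
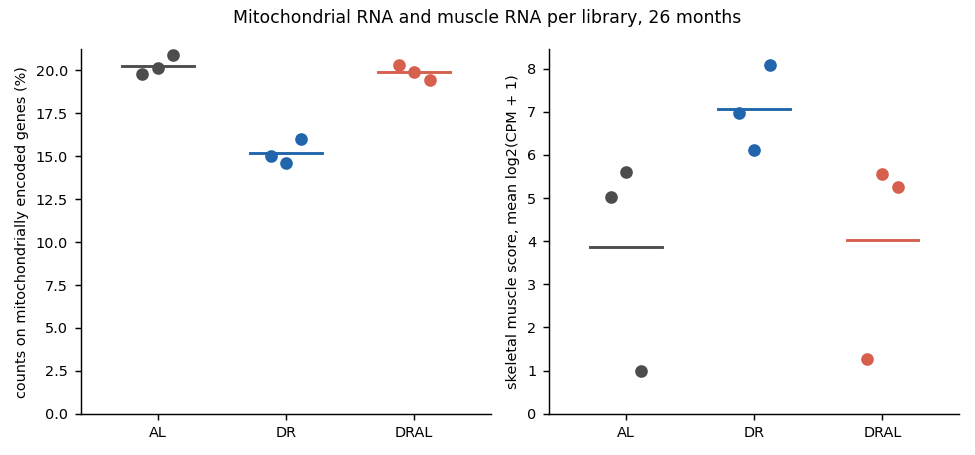
Share of counts on mitochondrially encoded genes (left, percent) and skeletal muscle score (right, mean log2(CPM + 1) of 12 markers) in the AL, DR and DRAL libraries at 26 months; points are libraries and bars are group means. The 3 DR libraries lie lowest in the left panel (14.58% to 16.02%) and highest in the right panel, where DRAL replicate 1 and AL replicate 3 have the lowest scores (1.26 and 0.98).

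Refeeding was followed by broad differences from continued restriction. Of 13845 genes tested, 1163 (8.40%) passed an adjusted p of 0.05 in edgeR's quasi-likelihood test, 480 higher in DRAL (3.47% of genes) and 683 lower (4.93%). The change was more than 2-fold for 81 of the higher and 164 of the lower genes, and the median size was 0.59 on the log2 scale. With muscle and epithelium scores as covariates 515 genes passed, and without the libraries at the ends of muscle content 277 passed. Leaving out single libraries gave 425 (without DR replicate 1) to 720 (without DRAL replicate 2) genes. The genes below are those with the strongest evidence in each direction and the members of 18 lists of genes that brown fat uses. The count of calls in each list stands beside the 8.40% of all genes that passed.

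**Figure D2:**
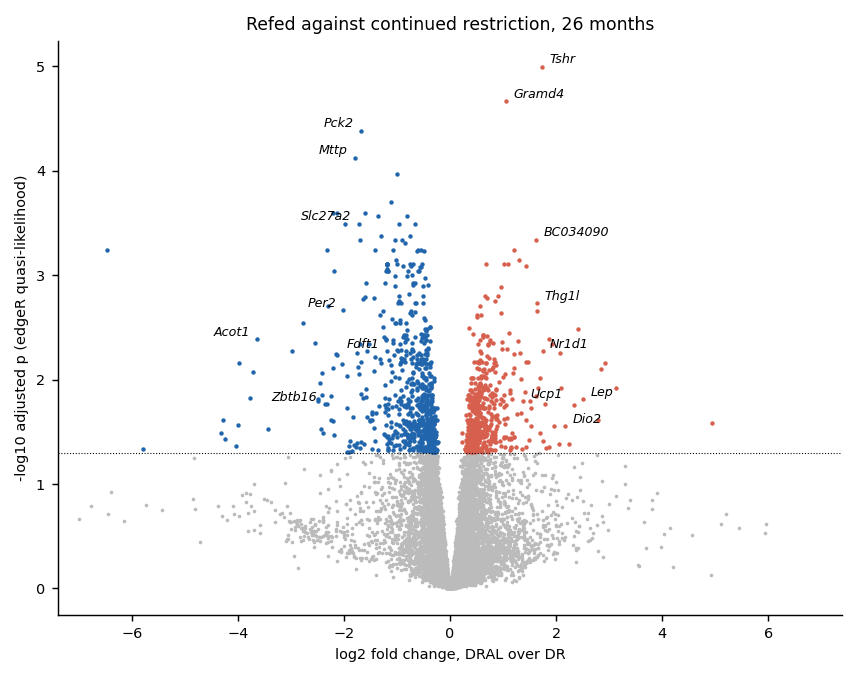
Each point is 1 of 13845 genes, with the log2 fold change of DRAL over DR on the horizontal axis and -log10 of edgeR's adjusted p on the vertical axis; the dotted line marks an adjusted p of 0.05. The 480 higher genes (red) and 683 lower genes (blue) lie above the line, with Tshr and Gramd4 highest on the right and Pck2 and Mttp highest on the left.

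The gene with the lowest p was Tshr, the receptor for thyroid-stimulating hormone, which signals through cyclic AMP in thyroid cells and is also found on adipocytes (GRCm38 chr12:91384563-91549808, + strand). It was at 5.73, 8.31 and 8.42 CPM in the DR libraries, 24.6, 25.3 and 24.4 CPM in the refed ones and 33.0, 30.2 and 33.5 CPM in the fully fed ones. The 3 groups did not overlap: refed libraries were close to one another and stood between restricted and fully fed, nearer to the latter. The rise was 3.33-fold over DR (log2 1.74 ± 0.15 SE, adjusted p = 1.01e-05), and Tshr passed in all 14 alternatives run.

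Next in order among the genes that rose was Gramd4, at 16.6, 15.5 and 18.4 CPM in DR and 35.8, 33.5 and 36.5 CPM in DRAL (log2 1.06 ± 0.10 SE, adjusted p = 2.17e-05). The groups did not overlap, and AL libraries (39.1, 33.2 and 39.4 CPM) overlapped the refed ones. BC034090 was at 5.52, 7.17 and 5.19 CPM in DR against 18.1, 18.6 and 17.4 CPM in DRAL (log2 1.62 ± 0.21 SE). Bcl3, an atypical IκB protein that acts with NF-κB in the nucleus, rose from 9.46, 9.78 and 10.4 CPM to 20.7, 20.2 and 27.8 CPM. Serpinh1, the collagen chaperone of the endoplasmic reticulum, was at 124, 131 and 138 CPM in DR and at 250, 243 and 307 CPM in DRAL, a 2.03-fold rise. Ehbp1l1 rose 2.13-fold, and Thg1l, which adds a guanine to histidine transfer RNA, rose 3.12-fold from 4.09, 3.75 and 5.25 CPM to 13.6, 12.4 and 15.4 CPM. Lfng, the fringe enzyme that modifies Notch receptors, rose 2.69-fold to 20.9, 18.7 and 16.3 CPM, and here the refed libraries lay above the AL libraries too (12.5, 15.0 and 9.59 CPM), although the difference from AL did not pass (log2 0.59, 95% interval 0.16 to 1.02).

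The fall with the lowest p was that of Pck2, the mitochondrial phosphoenolpyruvate carboxykinase (GRCm38 chr14, + strand). Its restricted libraries were at 55.1, 37.3 and 39.7 CPM, the refed ones at 14.3, 14 and 13.1 CPM and the fully fed ones at 11, 13.1 and 13.1 CPM. Every restricted library was thus far above every other, and refed and fully fed libraries met at 13.1 CPM. The fall was 3.20-fold (log2 -1.68 ± 0.16 SE, adjusted p = 4.12e-05).

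The other genes that fell with the lowest p included 3 that handle lipids. Mttp, which loads triglyceride onto lipoproteins, was at 28, 21.3 and 25.9 CPM in DR and 7.0, 6.45 and 8.23 CPM in DRAL (3.48-fold lower, adjusted p = 7.47e-05). Slc27a1, a fatty acid transport protein, fell 2.57-fold from 333, 385 and 423 CPM to 137, 131 and 176 CPM. Slc27a2, a very-long-chain acyl-CoA synthetase of the same family, fell 3.29-fold from 244, 232 and 217 CPM to 51.9, 72.7 and 85.9 CPM. For each of the 3, refed and AL libraries overlapped and all restricted libraries stood above both. The other genes at the head of the order were Dock9, an activator of the GTPase Cdc42 (2.00-fold lower), Gstt2, a glutathione transferase (2.16-fold lower), Trpm4, a cation channel opened by calcium (3.02-fold lower), and Sspo (4.40-fold lower), each passing in all 14 alternatives. These 16 leading genes, 8 in each direction, were taken by p-value, so their separation is a property of the choice. The direction of their change in 5-month mice was not used in choosing them, and all 16 passed there in the direction opposite to refeeding. The 5-month libraries did enter the shared estimate of spread behind the p-values, so passing in both contrasts was not independent. Of all 1163 genes that differed between DRAL and DR, 61.7% passed at 5 months.

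Among the 21 tested genes of thermogenesis, Adrb3, Dio2 and Ucp1 rose with refeeding and Esrrg, an orphan nuclear receptor of oxidative metabolism, fell. Esrrg lost its call without any single one of the 6 libraries. The other 17 did not pass, and the list's median log2 difference was 0.25 against 0.008 over all genes. Adrb3, the noradrenaline receptor, was at 115, 135 and 175 CPM in DR, 239, 244 and 290 CPM in DRAL and 399, 269 and 246 CPM in AL. Refed libraries lay above all restricted libraries and overlapped AL, a 1.82-fold rise (adjusted p = 0.0072) that passed in all 14 alternatives.

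Ucp1, the uncoupling protein itself, was at 937, 1928 and 1280 CPM in DR, 2717, 3548 and 4462 CPM in DRAL and 4741, 3154 and 4772 CPM in AL. All refed libraries were above all restricted ones, though DR replicate 2 stood well above the other restricted libraries. The rise was 2.59-fold (log2 1.37 ± 0.32 SE, adjusted p = 0.0161). The call ended without DRAL replicate 3, DR replicate 1 or DR replicate 3, without the libraries at the ends of muscle content, and with the muscle and epithelium scores as covariates.

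Dio2 was the most variable of the 3, at 3.87, 16.9 and 8.78 CPM in DR, 31.9, 41.2 and 52.0 CPM in DRAL and 87.0, 30.5 and 58.9 CPM in AL. No restricted library reached a refed one, and the rise was 4.51-fold (log2 2.17 ± 0.58 SE, adjusted p = 0.028). It did not pass without DRAL replicate 2 or 3, without DR replicate 1 or 3, without the libraries at the ends of muscle content, or with the covariates. Muscle RNA moved in the opposite direction to these 3 genes, highest in DR, and only Adrb3 of the 3 passed with it in the fit.

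The promoters of Ucp1 and Dio2 are shown because both genes rose and both are textbook targets of cyclic AMP signalling. Each line gives the 250 bases before the RefSeq start site, in GRCm38.p6, 5′ to 3′ on the gene's strand (Ucp1 chr8:83290098-83290347, + strand; Dio2 chr12:90739039-90739288, - strand). Capitals mark a match to the cyclic AMP response element TGACGTCA, or to its core TGACG where the whole element is not there.
Ucp1: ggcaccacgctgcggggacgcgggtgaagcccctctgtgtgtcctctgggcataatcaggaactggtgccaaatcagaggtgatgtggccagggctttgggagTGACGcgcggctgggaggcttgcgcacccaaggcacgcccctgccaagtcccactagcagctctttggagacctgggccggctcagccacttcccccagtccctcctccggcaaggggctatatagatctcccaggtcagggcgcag
Dio2: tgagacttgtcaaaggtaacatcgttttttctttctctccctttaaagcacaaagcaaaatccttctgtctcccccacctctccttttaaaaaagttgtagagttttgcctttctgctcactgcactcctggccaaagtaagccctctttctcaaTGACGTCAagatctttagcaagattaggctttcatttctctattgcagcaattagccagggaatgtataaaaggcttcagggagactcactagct
The Dio2 window holds the whole element, starting 95 bases before the start site, and the Ucp1 window holds the core 147 bases before it. Read on both strands, TGACGTCA occurs in 1.55% and TGACG in 17.8% of 32851 mouse promoter windows of this length. Each whole element contains the core. A match is a run of letters, and binding was not measured in these data.

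**Figure D3:**
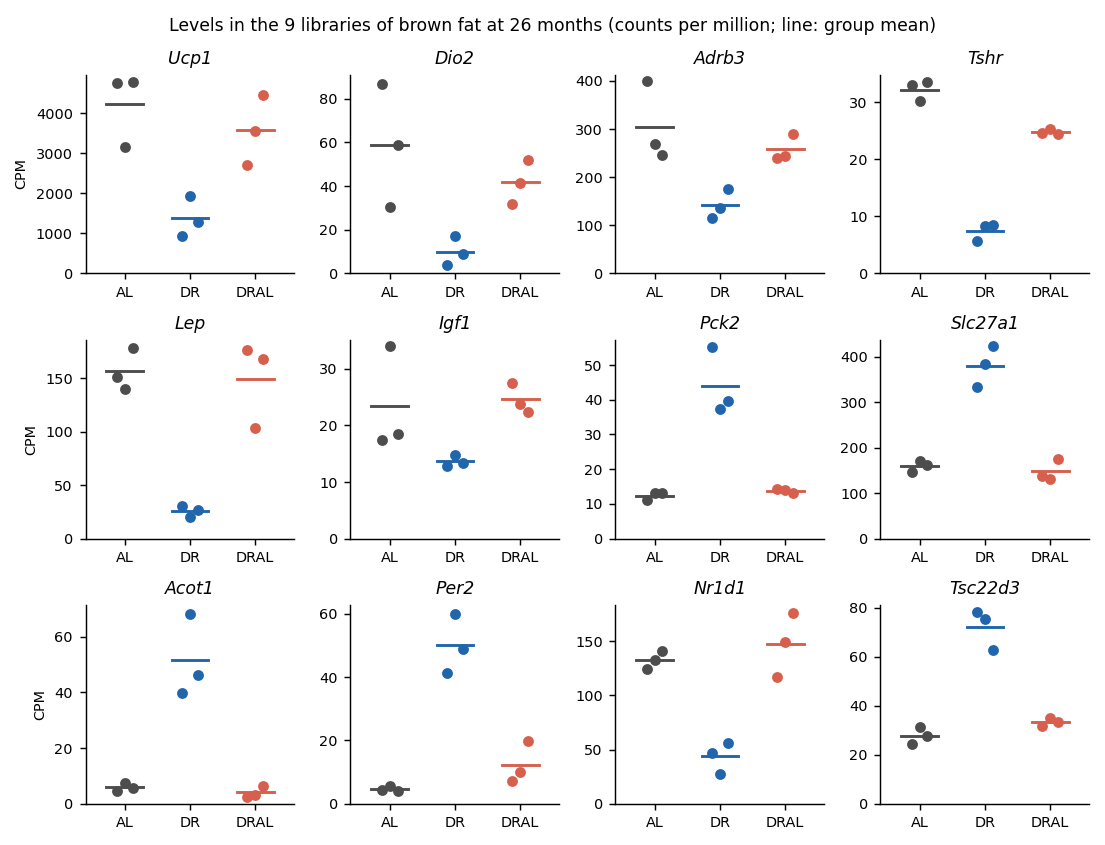
CPM of 12 genes (linear axes from 0) in the AL, DR and DRAL libraries at 26 months; points are libraries and bars are group means. Ucp1, Tshr and Lep are lowest in DR, and Pck2, Acot1 and Per2 are highest there, with refed libraries on the AL side in each case.

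In the list of the thyroid hormone axis, Tshr and Dio2 rose and the nuclear corepressor Ncor1, which silences unliganded thyroid hormone receptors, fell 1.36-fold, out of 11 tested. The other 8 did not pass, and the median log2 difference was 0.02. Ncor1 lost its call without the libraries at the ends of muscle content and without DRAL replicate 1 or 2 or DR replicate 2 or 3.

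In the list of lipolysis and oxidation 5 of 22 tested genes fell and none rose. The list's median log2 difference was 0.14, on the side of most of the 17 that did not pass. Ucp3 (log2 -0.49) and Pnpla2 (log2 -0.13), which did not pass, lay on the other side. Acot1, an acyl-CoA thioesterase, had the largest change, at 39.9, 68.1 and 46.3 CPM in DR, 2.53, 3.08 and 6.54 CPM in DRAL and 4.69, 7.30 and 5.71 CPM in AL. Every restricted library was thus several times as high as any other, and the fall was 12.4-fold (log2 -3.63 ± 0.67 SE, adjusted p = 0.0041). Acot1 and its near-identical neighbours Acot2, Acot3 and Acot4 can share reads, so the split between them is uncertain.

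Pdk4, the kinase that shuts pyruvate dehydrogenase when fat is the fuel, was at 2916, 2851 and 3502 CPM in DR, 1314, 1791 and 1962 CPM in DRAL and 2900, 1601 and 2738 CPM in AL. Its fall was 1.83-fold (adjusted p = 0.018), AL libraries spread over both other groups, and the call ended without DRAL replicate 1 or DR replicate 3 and with the covariates. Cpt1a, the gate for fatty acids into mitochondria, fell 1.66-fold and lost its call without any single one of DRAL replicates 1 and 2 and DR replicates 1, 2 and 3. With the covariates 3 genes of the list fell, and without the libraries at the ends of muscle content 1 did, Acot1.

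In triglyceride storage 4 of 20 tested genes fell and 1 rose (median log2 difference -0.16). Slc27a1, described above, was among those that fell. Angptl4, a fasting-induced inhibitor of lipoprotein lipase, fell 1.92-fold from 701, 471 and 751 CPM to 272, 443 and 286 CPM. The lipase itself, Lpl, also went down, from 2788, 3259 and 3180 CPM to 1979, 2377 and 2545 CPM (1.34-fold). Fitm2, which helps lipid droplets form, fell 1.33-fold. The member that rose was Agpat2, an acyltransferase of glycerolipid synthesis, from 476, 765 and 586 CPM to 1189, 1291 and 1500 CPM. Agpat2, Angptl4, Lpl and Fitm2 did not pass with the muscle and epithelium covariates or without the libraries at the ends of muscle content. Angptl4, Lpl and Fitm2 each lost the call without DRAL replicate 1 or DR replicate 3, and Agpat2 passed in 7 of 14 alternatives.

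Lipogenesis gave 1 call in 20 genes tested, or 5.00%, below the 8.40% of all genes. The call was Pnpla3, a lipid droplet protein that follows carbohydrate feeding. Pnpla3 was at 332, 372 and 295 CPM in DR and 968, 530 and 684 CPM in DRAL (adjusted p = 0.0472 in edgeR). That call passed in 6 of 14 alternatives and ended without DRAL replicate 1 or 3 or any of the DR libraries. Fasn, the fatty acid synthase, was at 24520, 28325 and 20395 CPM in DR, 24117, 23258 and 29444 CPM in DRAL and 34743, 13255 and 22754 CPM in AL. The groups overlapped fully, the log2 difference was 0.07 ± 0.33 SE, and its sign changed between alternatives.

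Pck2 belongs to the list of the amino acid stress response, in which 1 of 20 genes rose and 1 fell (median log2 difference -0.05). These calls are 10.0% of the list, near the 8.40% of all genes. The riser was Atf4, the transcription factor that drives this response, at 49.6, 59.2 and 68.0 CPM in DR and 68.0, 85.5 and 98.4 CPM in DRAL. Its 1.43-fold rise (adjusted p = 0.0448) was opposite in direction to the fall of Pck2, which Atf4 is known to activate. The call did not survive the muscle and epithelium covariates or leaving out DRAL replicate 2 or 3 or DR replicate 1 or 2. The Pck2 promoter (GRCm38.p6 chr14:55540016-55540265, + strand, 250 bases before the RefSeq start) is shown for the composite element of the Atf4 and C/EBP factors, searched as TGATGNAAN on both strands; capitals mark a match on the reverse strand.
Pck2: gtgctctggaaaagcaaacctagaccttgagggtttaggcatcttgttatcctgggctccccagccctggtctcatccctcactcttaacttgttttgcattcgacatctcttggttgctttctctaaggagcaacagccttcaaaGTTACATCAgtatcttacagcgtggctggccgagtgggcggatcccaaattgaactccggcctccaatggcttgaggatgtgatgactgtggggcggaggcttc
The match starts 104 bases before the start site, and 3.44% of all promoter windows hold one.

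In the list of glucocorticoid receptor targets 5 of 15 tested genes fell with refeeding, none rose, 10 did not pass, and the median log2 difference was -0.59. Tsc22d3, the leucine zipper protein GILZ, was at 78.4, 75.5 and 62.8 CPM in DR, 31.7, 34.8 and 33.4 CPM in DRAL and 24.2, 31.2 and 27.8 CPM in AL, a 2.17-fold fall (adjusted p = 0.0072). Refed libraries were well below restricted ones and slightly above AL. Zbtb16, the zinc finger factor PLZF, fell 5.15-fold from 69.5, 61.9 and 45.9 CPM to 10.3, 11.5 and 12.5 CPM, lower than each AL library (17.4, 19.4 and 17.8 CPM). The metal-binding metallothionein Mt2 fell 2.33-fold from 30.8, 27.5 and 32.4 CPM. Mt1 and Pdk4 were the others. Leaving out DRAL replicate 1, DRAL replicate 3 or DR replicate 1 ended the call of Zbtb16 and that of Mt2. With the covariates 2 of the list's genes passed, and without the libraries at the ends of muscle content none did.

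In insulin and IGF signalling 4 of 22 genes fell and 1 rose (median log2 difference -0.16). The hormone Igf1 rose 1.81-fold, from 12.8, 14.8 and 13.3 CPM to 27.6, 23.8 and 22.4 CPM, with no overlap. The receptors went the other way: Igf1r fell 1.59-fold and Insr 1.27-fold. The docking proteins Irs1 (1.65-fold lower) and Irs2, which carry the signal inside the cell, fell too, Irs2 from 67.9, 45.3 and 45.8 CPM to 11.1, 17.4 and 15.5 CPM. Igf1 and Irs1 each lost the call without DRAL replicate 1, DR replicate 1 or DR replicate 3, and Igf1r and Insr each lost theirs in at least 5 of the 6 fits without a single library. Irs2 passed in 4 of 14 alternatives. With the muscle and epithelium covariates none of the 4 falls passed, and without the libraries at the ends of muscle content no gene of the list did.

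Among 19 clock genes 2 rose and 4 fell (median log2 difference -0.12). The clock is a loop in which Arntl (BMAL1) activates the Per, Cry and Nr1d1 genes, whose products feed back on it, and it is set in peripheral tissues by meal times. Per2, a repressor arm gene, was at 41.4, 60.0 and 48.8 CPM in DR, 7.17, 9.89 and 19.7 CPM in DRAL and 4.33, 5.46 and 4.0 CPM in AL. Refed libraries were far below restricted ones and yet above every AL library. The fall from DR was 4.04-fold (log2 -2.01 ± 0.34 SE, adjusted p = 0.00217).

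Nr1d1, the repressor REV-ERBα, rose 3.35-fold from 46.7, 27.7 and 56.4 CPM to 117, 149 and 176 CPM. Rora, which activates the elements that Nr1d1 represses, fell 1.44-fold and lost its call with the muscle and epithelium covariates and without the libraries at the ends of muscle content. Opposing regulators of the same DNA element thus differed in opposite directions. Bhlhe40, a repressor, rose as well, and Cry1 fell. Arntl was at 4.01, 8.96 and 8.05 CPM in DR, 16.6, 12.0 and 7.82 CPM in DRAL and 21.0, 18.5 and 19.5 CPM in AL. The refed libraries of Arntl spread from the restricted range almost to the AL range, and its difference from DR did not pass (log2 0.82 ± 0.39 SE, adjusted p = 0.211). All groups were killed in the same window of the day, and 1 time point cannot separate a shifted rhythm from a changed level.

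Secreted factors gave 2 rises and 1 fall among 17 genes (median log2 difference 0.17). Lep, the adipocyte hormone that reports fat stores, was at 30.7, 20.4 and 26.6 CPM in DR, 176, 103 and 168 CPM in DRAL and 151, 140 and 178 CPM in AL. The refed libraries overlapped the AL range and lay 5.71-fold above DR (log2 2.51 ± 0.59 SE, adjusted p = 0.0155). The call ended without any one of the DR libraries and without the libraries at the ends of muscle content. Leptin is made mainly by white adipocytes, whose markers summed to 32.9 to 39.5 CPM in DR and 128 to 198 CPM in DRAL, most of it Lep itself. Of the 8 listed, 5 were tested, with a median log2 difference of 0.62, and Lep alone passed; 2 had an unadjusted p under 0.05. Nnat passed without the libraries at the ends of muscle content, where Lep did not, and Hoxc10 was at 0 in all 9 libraries. The part of white adipocytes in the rise of Lep was not tested.

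Angptl8, a feeding-induced partner of the lipase inhibitors, rose 2.32-fold from 16.9, 24.4 and 25.7 CPM to 44.0, 52.1 and 58.5 CPM and lost its call only without DR replicate 1 among the 14 alternatives. Nrg4, a growth factor that brown fat secretes, fell 1.79-fold from 158, 178 and 143 CPM to 78.7, 89.2 and 98.7 CPM and lost its call without the libraries at the ends of muscle content. Each had no overlap between refed and restricted libraries.

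Cholesterol synthesis had 4 rises and 1 fall among 20 tested genes, with a median log2 difference of 0.63. Srebf2, the transcription factor that switches the pathway on, rose 1.42-fold. Msmo1, a demethylating oxidase of the pathway, rose 2.03-fold. Fdft1, the squalene synthase, went against them, from 355, 256 and 307 CPM in DR to 142, 140 and 119 CPM in DRAL, against 104, 91.7 and 97.5 CPM in AL (2.29-fold lower, adjusted p = 0.00534). It passed in all 14 alternatives, whereas Srebf2 and Msmo1 each lost the call without DRAL replicate 1, DR replicate 1 or DR replicate 3. With the covariates 1 gene of the list rose and 1 fell, and without the libraries at the ends of muscle content the fall of Fdft1 alone passed.

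The extracellular matrix list had the most calls, 8 rises and 1 fall among 27 genes (median log2 difference 0.41). The risers were 6 collagen genes, Col1a1, Col4a1, Col4a2, Col5a2, Col5a3 and Col15a1, with the microfibril protein Fbn1 and Loxl1, an enzyme of the lysyl oxidase family that cross-links elastin. Loxl1 was at 7.60, 7.66 and 5.61 CPM in DR and 13.4, 18.0 and 20.9 CPM in DRAL (2.54-fold, adjusted p = 0.00992), and AL libraries reached higher (21.7, 19.9 and 32.5 CPM). Its call ended without DR replicate 3. Col15a1 rose 1.97-fold and Col5a2 1.54-fold, and the collagen chaperone Serpinh1, described above, rose too. Timp3, an inhibitor of matrix proteases, fell 1.78-fold from 326, 322 and 307 CPM to 168, 185 and 183 CPM. With the covariates 4 members rose and 1 fell, and without the libraries at the ends of muscle content only the fall of Timp3 passed.

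None of the genes passed in the lists of the respiratory chain (27 tested, median log2 difference 0.17), glycogen (17, 0.12), macrophages (20, 0.36), lymphocytes (16, 1.63), interferon response (20, 0.38) or proliferation (19, 0.41). At an unadjusted p under 0.05 in the same edgeR test the counts were 0, 4, 1, 0, 3 and 2, beside 3348 (24.2%) of all genes. Markers of lymph node summed to 115 CPM in DRAL replicate 1, 7.45 CPM in DRAL replicate 2 and 1.21 CPM in DRAL replicate 3, against 11.8 to 14.5 CPM in DR. DRAL replicate 1 alone stood above the DR libraries and the other refed libraries lay below them; the part of lymph node RNA in the lymphocyte median was not tested. For Cd3e, Adgre1 and Mki67, the first genes of the lymphocyte, macrophage and proliferation lists, the sign of the difference turned without DRAL replicate 1. Over all 18 process lists 51 of the 346 genes tested passed, 24 higher and 27 lower, which is 14.7% beside 8.40% of all genes. The lists were chosen with earlier results of these data known, so that share is a description.

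**Figure D4:**
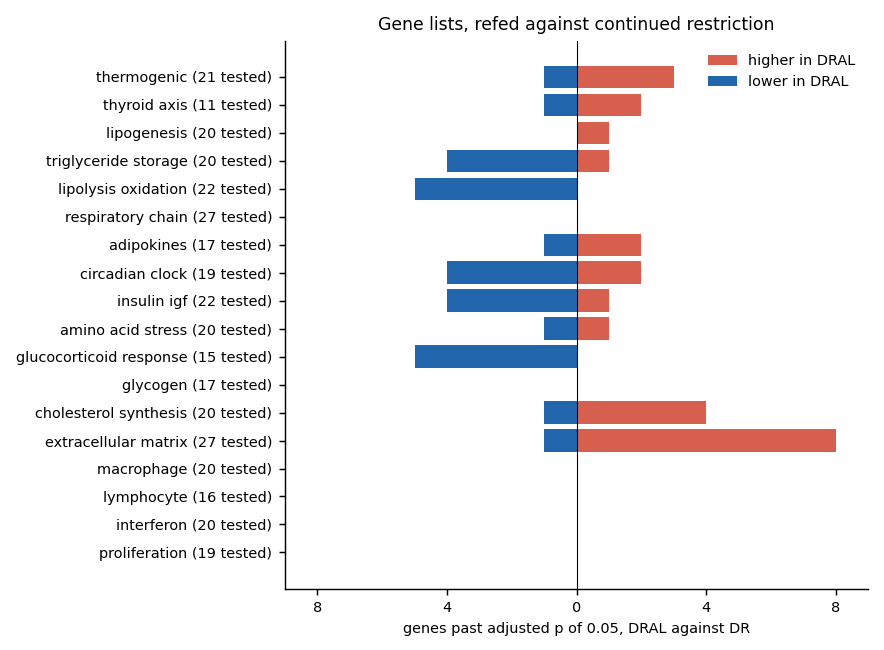
Genes of each of the 18 process lists that passed an adjusted p of 0.05 between DRAL and DR, as a number of genes higher (right) and lower (left). The extracellular matrix list has the most genes higher (8), the glucocorticoid and lipolysis lists have 5 lower and none higher, and 6 lists have no gene past the threshold.

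The refed group was then set against the fully fed group. No gene passed an adjusted p of 0.05 between DRAL and AL in edgeR's quasi-likelihood test (0%; smallest adjusted p 0.181), 656 genes (4.74%) had an unadjusted p under 0.05, and DESeq2 called 6. Between DR and AL, 1594 genes (11.5%) passed, 830 higher (5.99%) and 764 lower (5.52%) in DR. The absence of calls does not show equality: the median 95% interval of a gene's log2 difference reached 0.35 to each side, and for 10771 genes (77.8%) it lay within 1 log2 unit of 0. Of the 1163 genes that differed between refed and restricted, 1051 (90.4%) had an interval against AL within 1 log2 unit. Their median absolute log2 difference was 0.59 between DRAL and DR, 0.56 between DR and AL and 0.11 between DRAL and AL. These 3 contrasts share libraries, and the genes were chosen on the first of them.

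The young mice gave a direction of restriction free of that sharing. At 5 months 1997 genes (14.4%) passed between ALDR and AL, 997 higher (7.20%) and 1000 lower (7.22%). Along this direction the old DR group had moved by a median log2 of 0.40 from old AL, and the refed group by 0.02. Of the 1997 genes, 1895 (94.9%) differed between old DR and AL in the same direction as at 5 months, but 1114 (55.8%) did so between DRAL and AL. Refed minus restricted ran against the direction in 1894 genes, of which 716 passed, and 1 gene passed along it. Genes raised and genes lowered by early restriction behaved alike: the median DRAL minus DR was -0.43 for the former and 0.35 for the latter, and 0.01 over all genes.

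Measured in each library against the AL mean, the mean log2 shift along the restriction direction, over the same 1997 genes, was 0.57, 0.48 and 0.52 in DR. It was 0.04, 0.08 and -0.01 in DRAL and -0.08, 0.11 and -0.03 in AL. Refed libraries lay inside the AL range and none approached a restricted one. As a share of the way from the DR mean to the AL mean they had covered 92.6%, 85.3% and 102.8% (mean 93.6% ± 8.8 SD, n = 3), while single AL libraries ranged from 78.1% to 115.5%.

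**Figure D5:**
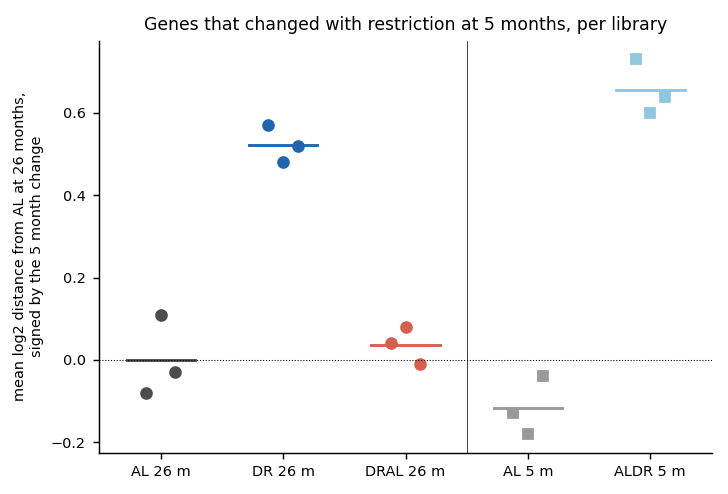
Mean log2 shift of each BAT library along the direction of 5-month restriction, over 1997 genes, relative to the AL mean of 26-month mice; points are libraries (squares for the 5-month mice whose change set the direction) and bars are group means. DRAL libraries (-0.01 to 0.08) lie within the AL libraries (-0.08 to 0.11) and apart from DR libraries (0.48 to 0.57).

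The same contrast of young mice was read for the genes that refeeding changed. Of the 1163, 717 (61.7%) also passed at 5 months, which is 35.9% of the 1997 genes called there, and 716 of them moved oppositely to refeeding. Of the 52 named genes past the threshold 42 passed at 5 months in the opposite direction, 10 did not pass, and none passed in the same direction. Tshr was at 34.9, 32.3 and 31.3 CPM in young AL mice and 11.4, 12.7 and 13.7 CPM in newly restricted ones. Pck2 was at 17.1, 17.3 and 17.4 CPM against 62.7, 45.0 and 45.9 CPM, and Ucp1 at 4898, 6082 and 3964 CPM against 1581, 3076 and 2088 CPM. The groups were separate for each of the 3. The direction of the difference was that of old DR against old AL, and for Tshr the newly restricted libraries were all above the old DR libraries. Acot1, with 4.09, 4.99 and 6.0 CPM in young AL, reached 88.4, 83.1 and 126 CPM in young ALDR mice.

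The 10 genes that did not pass at 5 months included Igf1 (log2 -0.10), Mt2 (log2 0.07), Zbtb16 (log2 1.08, adjusted p = 0.183) and Esrrg (log2 -0.07). The others were Timp3, Angptl8, Srebf2, Pdk4, Msmo1 and Igf1r. Esrrg was the only one of the 52 with the same sign in refeeding and in early restriction. Whether the effect of restriction on these 10 genes differs between ages was not tested.

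The share of the way back to the AL level was estimated per gene from groups of 3 libraries, and differences between genes were not tested. The 95% interval of DRAL minus AL was log2 -1.22 to 1.09 for Lep and -1.99 to 0.93 for Acot1. Several of these genes were chosen on DRAL against DR. Lep had covered 97.4% of the log2 distance from DR to AL, Pck2 91.7%, Ucp1 85.1%, Tshr 82.1%, Adrb3 78.0% and Fdft1 72.5%. Per2 had covered 58.6% and Arntl 53.9%. Acot1 (117%) and Angptl8 (123%) had gone past the AL mean. None of these differences from AL passed the test.

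The genes furthest from AL after refeeding were named by unadjusted p among those whose groups did not overlap, 5 higher and 5 lower, and so their lack of overlap was a condition of the choice. Ryr2, the calcium release channel of the endoplasmic reticulum, was at 21.7, 12.6 and 16.5 CPM in AL, 0.932, 0.652 and 1.65 CPM in DR and 1.77, 1.93 and 4.85 CPM in DRAL. Refed libraries were all above the restricted ones but nearer to them than to AL (34.1% of the way to AL), and DRAL replicate 3 was the highest. The rise over DR did not pass (log2 1.32, 95% interval 0.32 to 2.32, adjusted p = 0.0966 in edgeR). The difference from AL was log2 -2.55 (95% interval -3.45 to -1.65, adjusted p = 0.181 in edgeR). It passed in DESeq2 (adjusted p = 8.86e-06), after thinning all libraries to equal depth (adjusted p = 0.0257 in edgeR), and without DRAL replicate 3 (adjusted p = 0.0416 in edgeR).

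Cdh9, a cadherin, was at 4.87, 5.52 and 6.29 CPM in AL, 1.43, 0.652 and 1.16 CPM in DR and 1.27, 1.36 and 1.62 CPM in DRAL, so that restricted and refed libraries overlapped (14.3% of the way to AL). Map7d2 and Shisa6 were no higher than 1.30 CPM in every restricted and refed library and between 1.84 and 6.35 CPM in AL. Arhgef10, a guanine nucleotide exchange factor, was at 31.0, 25.1 and 36.2 CPM in AL, 17.8, 17.1 and 15.8 CPM in DR and 20.0, 18.9 and 21.2 CPM in DRAL. Their distance from AL was fixed by the choice as well. DESeq2 also called Cdh9 (adjusted p = 0.000191), Shisa6 (0.000955) and Map7d2 (0.0025) lower in DRAL than in AL, and edgeR called none of these.

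On the higher side stood Stxbp2, a partner of syntaxins in vesicle fusion, with 59.8, 54.7 and 61.8 CPM in AL, 106, 113 and 101 CPM in DR and 75.3, 76.8 and 73.8 CPM in DRAL. Its refed libraries sat between the other groups without overlap, 58.4% of the way to AL (log2 difference from AL 0.36, 95% interval 0.19 to 0.53, adjusted p = 0.582 in edgeR and 0.0432 in DESeq2). Smagp had covered 47.5% of the way and Eif2b1, a subunit of the factor that recharges eIF2, 34.7%. Per2, described above, and Mbp, a myelin protein, were the others on this side.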

How the data were processed

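BAT libraries were stranded, single-end libraries of polyadenylated RNA, per the labels' protocols. The authors deposited a table of read counts per Ensembl gene. Reads were trimmed with Trim Galore 0.3.7 and aligned with TopHat2 2.0.14 to GRCm38, per the submitters' processing notes, which also name DESeq2; the counting program and its annotation are not given in the sources used here. Symbols from GENCODE M21 matched 25012 of 25913 gene IDs. No pair of libraries of the same group agreed within sampling noise, and none of the 9 old libraries had a count on the Y-linked genes checked.

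Counts of the 20 BAT libraries (6 groups) were fitted together with edgeR 4.0.16 (limma 3.58.1, R 4.3.3; filterByExpr, TMM scaling, glmQLFit and glmQLFTest), leaving 13845 genes, and p-values were adjusted over all of them by Benjamini-Hochberg. CPM are on TMM-scaled library sizes and are not corrected for gene length, so they were compared between libraries and not between genes. P-values measure the spread between these libraries, estimated over all 6 groups. The group not described above was ALDR at 26 months (5 libraries, titled ADRL), restricted to 60% of the AL food from 24 months. It was not compared here but entered the filter, the scaling and the estimate of spread. Its replicate 5 had an epithelium score of 5.68, the highest of the 20 libraries. On simulated counts the step recovered, for DRAL against DR over 13680 genes, 68.7% of genes changed by log2 1 and 83.8% of those changed by log2 2. Summaries and exact permutation tests used Python 3.11.15, pandas 2.3.3, numpy 2.4.6 and scipy 1.17.1.

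The comparison and the gene lists were chosen with earlier results of these data known. Named genes were the 8 of lowest p in each direction among those with adjusted p under 0.05, a log2 change of at least 1, a settled gene symbol and no overlap of libraries. To these were added up to 4 members of each of 18 lists past the threshold (its first gene where there was none), with Ucp1, Lep, Tshr, Fasn, Arntl and Pck2, and 5 genes higher and 5 lower in DRAL than AL by unadjusted p with no overlap. Agpat2, Irs2, Mt1, Cry1 and further collagen genes were named after their values were seen. Promoters came from RefSeq (GRCm38.p6), which matched 44 of the 60 genes the rule named. Some genes the rule named are not reported here. Alternatives were DESeq2 1.42.0, RLE size factors, no filter, only the compared groups, muscle and epithelium scores as covariates, a replicate block and leaving out each library; thinning to equal depth and leaving out the libraries at both ends of muscle content were added after the data were seen.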

Additional observations from a re-analysis of the deposited data

How the results depend on the processing

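Between DRAL and DR, the 1163 calls became 1501 with DESeq2, 1156 with RLE size factors, 948 with no filter, 860 after thinning and 1289 (51.2% higher, against 41.3%) with only the compared groups fitted. They became 515 with the covariates, 277 without the libraries at the ends of muscle content among the 6 compared (DR replicate 3 and DRAL replicate 1), and 425 to 720 with single libraries left out. Between DRAL and AL the count of 0 became 6 with DESeq2, 1 after thinning and 0 to 1 with single libraries left out. Between DR and AL the 1594 became 797 with the covariates, 879 without the same pair and 687 to 1655 leaving out single libraries, and the 1997 of the 5-month contrast 835 to 1676. The 51 list genes became 29 with the covariates, 12 without the muscle ends and 21 to 38 leaving out single libraries; the cause was not tested. The share of the way to AL, 94.1% for the median over genes, was 83.1% (without AL replicate 2) to 103% (without AL replicate 1) with single libraries left out, and 86.4% to 95.9% under the other settings. Replicate numbers did not pair the libraries (same-number correlations between DR and DRAL of 0.11, -0.13 and 0.29); with a replicate block the counts were 1517, 0, 2014 and 2531 in the 4 contrasts. Of 52 named genes past the threshold, 23 passed in all 14 alternatives. The sign turned for Adgre1 (log2 -0.01 without DRAL replicate 1 to 0.43 without DRAL replicate 3; -0.18 without the muscle ends), Cd3e (-1.98 without DRAL replicate 1 to 1.80; -2.32 without the muscle ends) and Mki67 (-0.13 without DRAL replicate 1 to 1.47; -0.32 without the muscle ends). It turned too for Fasn (-0.05 without DR replicate 3 and -0.04 without DRAL replicate 3, to 0.19 without DR replicate 2; -0.08 with the covariates and -0.00 without the muscle ends). DR replicate 2, the shallowest library, limits what could be seen of weak genes.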

Other observations

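Gene families outside the lists were grouped by symbol after their values were seen, so their counts are descriptions. Over all genes 3.47% were called higher and 4.93% lower. Of 48 large mitochondrial ribosomal proteins 12 rose and none fell (median log2 difference 0.25), and of 29 small ones 2 rose and none fell (0.28). Of 15 inner membrane import genes (Timm) 4 rose, and of 10 outer membrane ones (Tomm) 3 rose. Of the 13 mitochondrially encoded genes tested 2 rose (median log2 difference 0.68), and at 5 months none of them rose with restriction and 5 fell. With muscle and epithelium covariates 6 of the large and 0 of the small ribosomal proteins, 3 Timm genes, 1 Tomm gene and 1 mitochondrially encoded gene passed. Without the libraries at the ends of muscle content 2 large ribosomal proteins passed and none of the others in these families. Cytosolic ribosomal proteins had 1 rise in 84 and a median of -0.15.

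All 9 Ugt1a genes fell, but they share exons, their counts are nearly the same, and they amount to 1 measurement. Of 19 glutathione transferases 6 fell, and of 25 cytochrome P450 genes 6 fell; the others did not pass. With the covariates 4 and 3 passed, and without the muscle ends 2 and 1. Cyp2e1, which oxidises ethanol and acetone, was at 52.1, 65.0 and 75.7 CPM in DR, 4.89, 13.5 and 5.93 CPM in DRAL and 5.14, 15.1 and 7.35 CPM in AL (log2 -2.98 ± 0.58 SE, adjusted p = 0.00533). Restricted libraries stood alone, and refed and AL libraries overlapped.

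Of 8 clustered histone genes 4 rose, 2 passed with the covariates and none passed without the muscle ends. Hist1h1c, a linker histone, was at 18.0, 20.0 and 16.2 CPM in DR, 66.2, 70.5 and 91.0 CPM in DRAL and 104, 54.6 and 95.2 CPM in AL. Of 5 tested markers of nerve and its sheath 2 rose. S100b, a calcium-binding protein of glia that adipocytes make too, was at 50.8, 51.3 and 44.1 CPM in DR and 135, 162 and 156 CPM in DRAL, with AL at 188, 101 and 176 CPM. Mbp was the other, and the Schwann cell marker Sox10 did not pass.

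Mest, an adipocyte gene linked to fat mass expansion, was at 9.65, 12.2 and 15.9 CPM in AL, 2.37, 2.44 and 2.20 CPM in DR and 4.39, 3.51 and 6.47 CPM in DRAL. Its refed libraries lay between the other groups without overlap, and neither difference passed the test (log2 1.04 ± 0.48 SE from DR, log2 -1.39 ± 0.44 SE from AL).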
